A study of Mus musculus with 12 samples.

Results

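The 35 genes described here carry glucose into the cell, break it down to pyruvate, and pass pyruvate on to lactate or to the mitochondrion. They were taken by name from a list, not by a rule on their values, though the list was chosen with earlier results of these data known. All 35 were found among the 36131 genes of the count table. By step they are 2 glucose transporters, 9 enzymes from hexokinase to the triose phosphates, 4 enzymes that make or remove fructose 2,6-bisphosphate, 8 enzymes from glyceraldehyde 3-phosphate to pyruvate, 4 genes of lactate dehydrogenase and monocarboxylate transport, and 8 genes of pyruvate entry and pyruvate dehydrogenase with its kinases. Where a symbol had several rows (Aldoa), the row with most counts was used.

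The retinas came from 12 wild-type C57BL/6J mice at postnatal day 18 (P18), in an oxygen-induced retinopathy model: pups breathe high oxygen, which stops the growth of retinal vessels, and the poorly perfused retina becomes hypoxic on return to room air. The 4 RA-PBS mice (animals 1 to 4) stayed in room air. The 4 O2-PBS mice (5 to 8) and the 4 O2-IC100 mice (9 to 12) were kept in 75% oxygen from P7 until P12 by the labels. By the labels all were injected into the peritoneum on P12, P14 and P16, with saline (PBS) or with 10 µg/g of IC100. The study's text has PBS injected into the vitreous of the eye, so the route of PBS in these 8 mice is uncertain and may differ from that of IC100. This humanized antibody binds ASC, the adaptor protein of inflammasomes. Room air mice given IC100 were not analysed here.

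Retina is known for aerobic glycolysis, in which photoreceptors turn much of their glucose into lactate even with oxygen at hand, and Müller glia and pigment epithelium exchange lactate with them. In hypoxia the transcription factor HIF-1 is stabilised and raises many glycolytic genes, together with the pyruvate dehydrogenase kinase Pdk1, which slows the entry of pyruvate into the mitochondrion, and the lactate exporter Slc16a3 (MCT4). By textbook knowledge 20 of the 35 genes are HIF-1 targets. RNA levels do not measure flux through any of these steps.

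The libraries held 14907143 to 24438082 counts. Animal 10, in the O2-IC100 group, had 59.0% of its counts in 16 lens crystallin genes and rod markers at 0.343% of counts, where the other 11 retinas had rod markers at 3.88% to 4.83%. Crystallins also took 1.25%, 4.50% and 1.44% of counts in RA-PBS animals 2, 3 and 4, against 0.00315% in RA-PBS animal 1, 0.00302% to 0.0158% in O2-PBS and 0.00407% to 0.00855% in O2-IC100 animals 9, 11 and 12. Each comparison was therefore fitted with all 12 animals and again without animal 10. The 35 genes together took 1.79% to 2.33% of counts in RA-PBS, 2.31% to 2.48% in O2-PBS, 2.02% to 2.18% in O2-IC100 without animal 10 and 0.663% in animal 10. In bulk tissue, fewer cells of a type and less RNA per cell cannot be told apart.

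The first comparison, O2-PBS against RA-PBS, asks what P18 retinas that had been through oxygen and back express. Without animal 10, Pfkp and Slc16a3 rose and Pgam2 fell past the thresholds of a 1.5-fold change, p under 0.05 and adjusted p under 0.1 (edgeR quasi-likelihood test, Benjamini-Hochberg over 16688 genes). That is 2 of 35 higher and 1 of 35 lower, where 4.09% of all genes tested were called higher and 2.18% lower. On the adjusted p alone, without the fold minimum, 5 members were higher (Pfkp, Slc16a3, Pfkfb3, Pfkl and Pdk1), against 6.00% of all genes, and 2 were lower (Pgam2 and Ldhb), against 6.42%. The 5 that rose are all in the textbook HIF-1 list. With all 12 animals in the fit none of the 35 was called in edgeR, DESeq2 or limma voom, where edgeR called 0.807% of all genes in either direction, and 3 members (8.57%, all genes 7.12%) had an unadjusted p under 0.05.

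**Figure D1:**
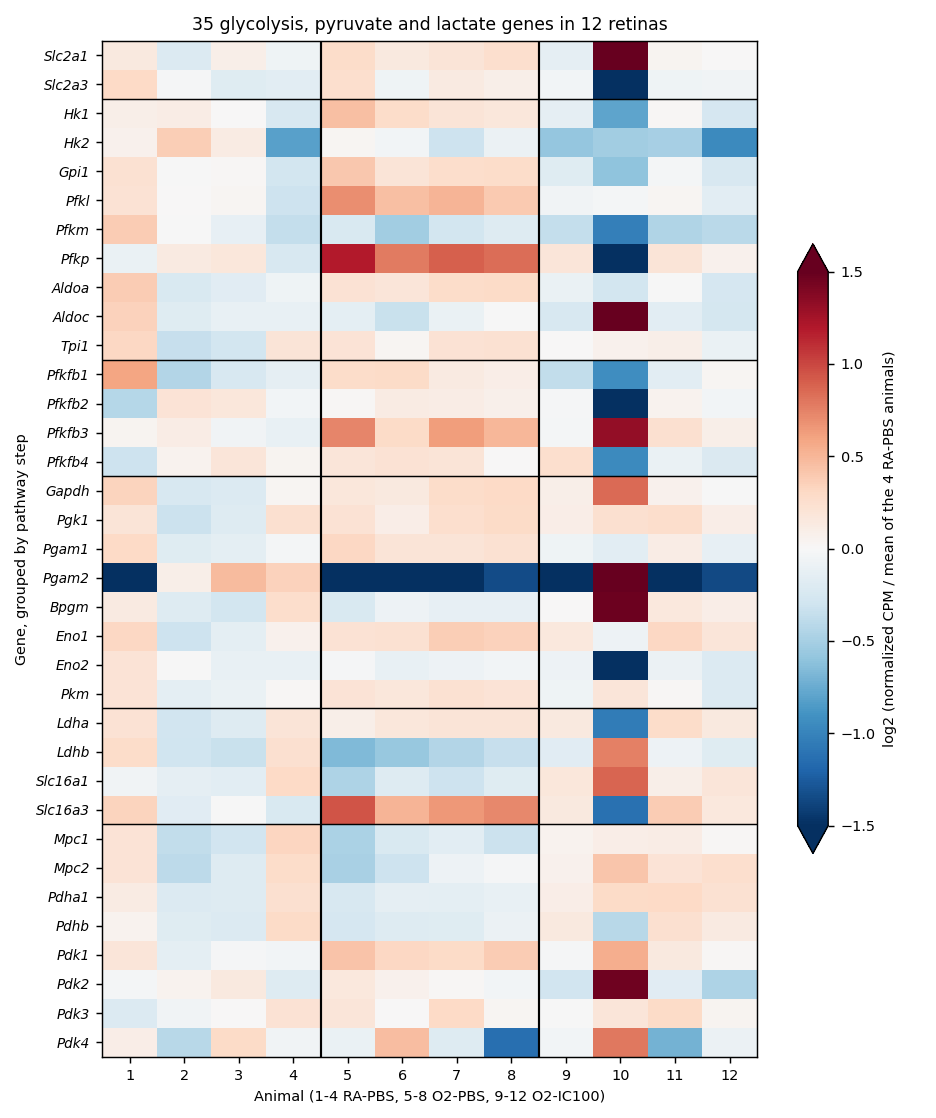
Each cell is the log2 ratio of a gene's normalized CPM in 1 animal to the mean of the 4 RA-PBS animals, with colours limited at 1.5 either way, lines between the 3 groups and between pathway steps. Pfkp, Pfkl, Pfkfb3, Slc16a3 and Pdk1 are above the RA-PBS mean in all 4 O2-PBS animals, and animal 10 stands apart in both directions.

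The sequences upstream of the 7 genes that passed the adjusted p are shown, since 5 of them, all higher in O2-PBS, are listed HIF-1 targets, and Ldhb and Pgam2, both lower, are not. Each run is the 250 bases before a RefSeq transcription start in the GRCm38.p6 assembly, 5′ to 3′ on the gene's strand, with capitals at the hypoxia response element core ACGTG or GCGTG wherever it stands on either strand. Of 2 starts listed for Pfkfb3 and 2 for Pdk1 the first is shown.
Pfkp chr13:6648772-6649021 (minus strand): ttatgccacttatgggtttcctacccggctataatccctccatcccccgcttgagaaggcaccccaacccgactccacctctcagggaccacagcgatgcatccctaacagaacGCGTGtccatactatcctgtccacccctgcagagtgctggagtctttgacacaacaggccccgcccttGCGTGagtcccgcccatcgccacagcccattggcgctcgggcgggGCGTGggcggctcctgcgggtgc
Slc16a3 chr11:120948817-120949066 (plus strand): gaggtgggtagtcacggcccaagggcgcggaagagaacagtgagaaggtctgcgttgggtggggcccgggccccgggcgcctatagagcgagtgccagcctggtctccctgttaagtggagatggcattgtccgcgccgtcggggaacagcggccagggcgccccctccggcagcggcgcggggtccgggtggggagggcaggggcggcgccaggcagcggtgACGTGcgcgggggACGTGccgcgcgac
Pfkl chr10:78009808-78010057 (minus strand): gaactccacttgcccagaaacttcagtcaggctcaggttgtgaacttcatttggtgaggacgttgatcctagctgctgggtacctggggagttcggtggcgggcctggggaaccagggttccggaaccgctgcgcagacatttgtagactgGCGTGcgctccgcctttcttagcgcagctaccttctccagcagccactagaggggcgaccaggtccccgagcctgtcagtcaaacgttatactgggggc
Pfkfb3 chr2:11553930-11554179 (minus strand): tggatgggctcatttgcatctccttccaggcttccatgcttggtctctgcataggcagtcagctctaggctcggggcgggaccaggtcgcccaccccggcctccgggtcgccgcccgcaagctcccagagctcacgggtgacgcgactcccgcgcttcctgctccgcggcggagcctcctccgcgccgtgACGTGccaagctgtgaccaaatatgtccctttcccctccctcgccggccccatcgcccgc
Pdk1 chr2:71872974-71873223 (plus strand): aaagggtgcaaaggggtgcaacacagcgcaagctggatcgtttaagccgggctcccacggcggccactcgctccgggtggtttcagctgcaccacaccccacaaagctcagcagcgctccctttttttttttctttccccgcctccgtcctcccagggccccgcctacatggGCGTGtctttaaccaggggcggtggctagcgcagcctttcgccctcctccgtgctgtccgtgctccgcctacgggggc
Ldhb chr6:142507958-142508207 (minus strand): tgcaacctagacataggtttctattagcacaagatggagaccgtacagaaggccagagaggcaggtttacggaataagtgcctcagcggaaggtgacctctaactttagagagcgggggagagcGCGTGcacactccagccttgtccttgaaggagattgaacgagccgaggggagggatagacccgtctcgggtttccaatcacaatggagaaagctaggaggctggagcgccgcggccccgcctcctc
Pgam2 chr11:5803797-5804046 (minus strand): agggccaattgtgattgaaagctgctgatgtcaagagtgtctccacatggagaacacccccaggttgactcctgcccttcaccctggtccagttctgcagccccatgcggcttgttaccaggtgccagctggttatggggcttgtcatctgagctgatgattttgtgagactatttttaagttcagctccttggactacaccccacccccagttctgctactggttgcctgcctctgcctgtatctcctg
Pfkp held 3 cores in this window and Slc16a3 held 2, while Pfkl, Pfkfb3, Pdk1 and Ldhb held 1 each and Pgam2 held 0. The second start of Pfkfb3 had 3 cores and that of Pdk1 had 0. Slc16a1, which is not a listed target and did not pass, had 4. Gpi1 and Tpi1, which are listed targets and did not pass, had 0 at the 1 start given for each. A palindrome CACGTG counts on both strands. At least 1 core stood at 39 of the 54 starts listed for 34 of the genes (72.2%), and at 12679 of 32851 starts of all genes (38.6%). Some windows of the same gene overlap and share a core, such as starts 2 and 3 of Aldoa and of Eno1. These shares do not separate listed HIF-1 targets from the other members. The windows differed in base composition, with a median GC content of 60.4% over those 54 starts and 52.4% over all. No start was listed for Slc2a3. A match of letters does not show that HIF-1 binds there.

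Phosphofructokinase, the committed step of glycolysis, held the largest rise among the 35. Levels are given as CPM, a gene's counts scaled to a common library size. Pfkp, the platelet-type subunit, stood at 813, 953, 981 and 737 CPM in RA-PBS animals 1 to 4, at 1988, 1492, 1623 and 1560 CPM in O2-PBS animals 5 to 8, and at 992, 154.5, 994 and 912 CPM in O2-IC100 animals 9 to 12. Every O2-PBS retina was above every RA-PBS retina. The fitted rise was 1.91-fold, a log2 fold change of 0.94 with an SE of 0.11 and an adjusted p of 0.000307 (edgeR without animal 10). Pfkl, the liver-type subunit, read 428, 368, 376 and 297 CPM in RA-PBS, 594, 502, 522.5 and 481 CPM in O2-PBS, and 355, 360.3, 375 and 330.3 CPM in O2-IC100. Its O2-PBS values also lay above all of RA-PBS, with a log2 fold change of 0.51 (SE 0.11, edgeR adjusted p = 0.0126), which is 1.43-fold and under the fold minimum. Pfkm, the muscle-type subunit, lay at 123 to 204 CPM in RA-PBS and 109 to 137 CPM in O2-PBS, and its log2 fold change of -0.30 did not pass (adjusted p = 0.1898).

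Pfkfb3 makes fructose 2,6-bisphosphate, the strongest activator of phosphofructokinase. It read 43.1, 45.2, 40.3 and 38.6 CPM in RA-PBS, 69.7, 50.9, 64.4 and 58.8 CPM in O2-PBS, and 41.1, 104.4, 49.25 and 44.4 CPM in O2-IC100. The O2-PBS values did not overlap RA-PBS, and the log2 fold change was 0.54 (SE 0.10, edgeR adjusted p = 0.00536). Of the other 3 enzymes of this kind, Pfkfb1 was near 1 to 2 CPM in RA-PBS, Pfkfb2 was at 356 to 554 CPM and Pfkfb4 at 12 to 16.8 CPM there, and their log2 fold changes of 0.20, 0.09 and 0.15 did not pass.

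Hexokinase traps glucose in the cell and Gpi1 turns its product into fructose 6-phosphate. Hk1 read 737, 754, 701 and 591 CPM in RA-PBS, 953, 841, 799 and 781 CPM in O2-PBS, and 635, 403.5, 704 and 587 CPM in O2-IC100. Gpi1 read 1068, 908, 926 and 758 CPM in RA-PBS, 1209, 1046, 1099 and 1112 CPM in O2-PBS, and 807, 600.3, 893.5 and 777 CPM in O2-IC100. The Hk1 groups did not overlap and those of Gpi1 did, by RA-PBS animal 1. Neither passed, with log2 fold changes of 0.28 (SE 0.10, adjusted p = 0.120) for Hk1 and 0.29 (SE 0.10, adjusted p = 0.1185) for Gpi1. Hk2, the inducible hexokinase, ranged from 128 to 291 CPM within RA-PBS and had a log2 fold change of -0.10. Aldolase and triose phosphate isomerase split and interconvert the sugar phosphates: Aldoa had a log2 fold change of 0.24, Tpi1 of 0.17 and Aldoc of -0.15, all short of the threshold.

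Neither of the 2 glucose transporters passed. Slc2a1 (GLUT1) was at 252.5 to 322 CPM in RA-PBS and 322 to 350.2 CPM in O2-PBS, a log2 fold change of 0.22 (SE 0.09, edgeR adjusted p = 0.1764). Slc2a3 (GLUT3) had a log2 fold change of 0.11 (adjusted p = 0.605).

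From glyceraldehyde 3-phosphate to pyruvate, Gapdh, Pgk1, Pgam1, Eno1 and Pkm had log2 fold changes of 0.23, 0.21, 0.23, 0.29 and 0.20, none of which passed (adjusted p from 0.1766 to 0.348). In all 5, RA-PBS animal 1 lay above the lowest O2-PBS animal while RA-PBS animals 2 and 3 lay below it. Bpgm, which makes 2,3-bisphosphoglycerate, and neuronal Eno2 had log2 fold changes of -0.14 and -0.06. Copies of several of these genes exist in the genome, and reads may be split among them, but the named copies in the table amounted to 3.63% of the counts of Pgam1 and under that for Eno1, Aldoa, Gapdh, Pgk1, Ldha and Tpi1.

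Pgam2, the muscle phosphoglycerate mutase, was the one called lower. It read 3.53, 13.2, 17.4 and 15.85 CPM in RA-PBS, 4.28, 4.33, 4.07 and 4.93 CPM in O2-PBS, and 4.15, 1172, 4.27 and 4.90 CPM in O2-IC100. Its high values stood in the 4 libraries with much crystallin RNA, animals 2, 3, 4 and 10, and RA-PBS animal 1 was below every O2-PBS animal. The log2 fold change of -1.50 (SE 0.35, edgeR adjusted p = 0.0184) became 0.06 (adjusted p = 0.878) once the log2 level of the crystallins entered the fit as a covariate, an alternative chosen after seeing the data.

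Lactate dehydrogenase interconverts pyruvate and lactate. Ldha, the form that favours lactate, was at 932 to 1317 CPM in RA-PBS and 1212 to 1298 CPM in O2-PBS, with a log2 fold change of 0.16 (adjusted p = 0.455). Ldhb, the form that favours pyruvate, read 156, 105.5, 103 and 153 CPM in RA-PBS, 81.7, 87.1, 95.2 and 102 CPM in O2-PBS, and 115, 219, 123 and 114 CPM in O2-IC100. All O2-PBS values of Ldhb were below all RA-PBS values, by a narrow gap to animals 2 and 3, and its log2 fold change was -0.50 (SE 0.14, edgeR adjusted p = 0.0392), which is 0.705-fold and short of the fold minimum. Without animal 1, 5 or 6 its adjusted p was 0.1068, 0.1041 or 0.1096.

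Monocarboxylate transporters carry lactate and pyruvate across the plasma membrane. Slc16a3 (MCT4), the exporter of glycolytic cells, read 93.3, 65.7, 73.55 and 63.0 CPM in RA-PBS, 142, 105.5, 116 and 122 CPM in O2-PBS, and 82.0, 34.0, 96.5 and 82.4 CPM in O2-IC100. No RA-PBS animal reached the lowest O2-PBS animal, and the rise was 1.64-fold, a log2 fold change of 0.71 (SE 0.13, edgeR adjusted p = 0.00414). Slc16a1 (MCT1) read 223, 211, 206 and 283 CPM in RA-PBS, 167, 201.5, 186 and 204 CPM in O2-PBS, and 260.5, 422.5, 244.5 and 262 CPM in O2-IC100. It lay lower in all 4 O2-PBS animals than in any RA-PBS animal, but its log2 fold change of -0.29 (SE 0.11) did not pass (adjusted p = 0.1336).

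At the mitochondrion, Pdk1 phosphorylates and inhibits pyruvate dehydrogenase. It read 72.0, 57.4, 63 and 61.8 CPM in RA-PBS, 85.6, 78.9, 77.5 and 83.0 CPM in O2-PBS, and 62.8, 93.0, 70.4 and 64.6 CPM in O2-IC100. The O2-PBS animals were all above RA-PBS, with a log2 fold change of 0.35 (SE 0.08, edgeR adjusted p = 0.0188), or 1.28-fold. The kinases Pdk2, Pdk3 and Pdk4 had log2 fold changes of 0.05, 0.13 and -0.13 and did not pass, Pdk4 at only 0.499 to 1.51 CPM in RA-PBS and O2-PBS. The pyruvate carrier subunits Mpc1 and Mpc2 and the dehydrogenase subunits Pdha1 and Pdhb had log2 fold changes of -0.29, -0.21, -0.16 and -0.18, none past the threshold.

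**Figure D2:**
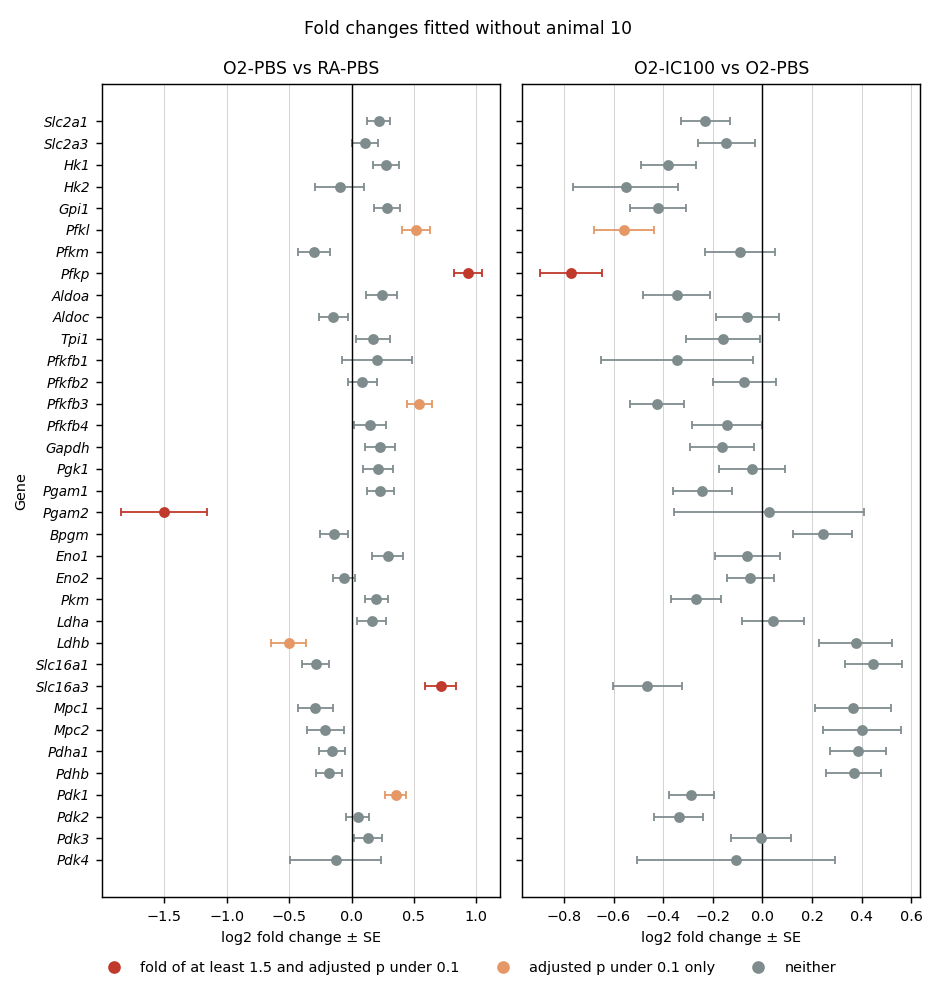
Points are log2 fold changes of the 35 genes with their SE from the edgeR fit without animal 10, O2-PBS against RA-PBS at left and O2-IC100 against O2-PBS at right, each panel on its own scale, coloured by whether the gene passed both the fold and the adjusted p, the adjusted p alone or neither. Pfkp has the largest rise at left (0.94) and the largest fall at right (-0.77), and the O2-PBS animals enter both panels.

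Over the list, 22 of 35 members had a log2 fold change above 0, with a median of 0.15 against -0.01 over all genes tested. The 20 textbook HIF-1 targets had 18 above 0 and a median of 0.23, and the other 15 had 4 above 0 and a median of -0.16. Of the 35, 6 did not overlap and were higher in O2-PBS (17.1%, all genes 7.86%), namely Pfkp, Pfkl, Hk1, Pfkfb3, Slc16a3 and Pdk1. The 2 that did not overlap and were lower were Ldhb and Slc16a1 (5.71%, all genes 6.48%). With the crystallin level as a covariate, part of the HIF-1 list had log2 fold changes below or near 0. The adjusted values lean on RA-PBS animal 1, the one RA-PBS retina at the crystallin level of O2-PBS. Whether lens RNA accounts for the change was not tested. Slc2a3, Aldoa, Tpi1, Gapdh, Pgam1 and Ldha of that list then fell below 0 (-0.196 to -0.027). Hk2 and Aldoc stayed below 0, and Pgk1, Eno1 and Pkm were near it (0.012 to 0.014). The listed targets that stayed higher were Slc2a1, Hk1, Gpi1, Pfkl, Pfkp, Pfkfb3, Pfkfb4, Slc16a3 and Pdk1 (0.086 to 0.988).

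Of the 4 RA-PBS retinas, animal 1 was the one with as little crystallin RNA as O2-PBS. Its Pfkp (813 CPM), Slc16a3 (93.3 CPM), Pfkfb3 (43.1 CPM), Pfkl (428 CPM) and Pdk1 (72.0 CPM) were below the lowest O2-PBS animal in each case, and its Ldhb (156 CPM) was above the highest. With the crystallin covariate, Pfkp kept a log2 fold change of 0.99 (edgeR adjusted p = 0.00360), Pfkfb3 0.44 (adjusted p = 0.0522) and Slc16a3 0.405 (adjusted p = 0.0588, no longer 1.5-fold), while Pfkl at 0.32 (adjusted p = 0.1143) and Pdk1 at 0.20 (adjusted p = 0.1714) no longer passed. In that fit Ldhb at -0.77 (adjusted p = 0.00896) and Pfkm at -0.67 (adjusted p = 0.00317) passed both thresholds. These are 3 of 35 members called, where that fit called 19.5% of all genes, and 8 of 35 under an adjusted p of 0.1, where 32.3% of all genes were. Aldoc (-0.47), Pfkfb2 (0.445) and Eno2 (-0.26) made up the 8. Since animal 1 alone puts RA-PBS at the crystallin level of O2-PBS, the adjusted values lean on that 1 retina. Its Pfkm was at 204 CPM, against 123 to 156 CPM in animals 2 to 4.

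Y-linked genes, which mark the sex of the animals, also stood unevenly in this comparison. Their summed CPM were 223 to 273 in RA-PBS animals 1 to 3 and 5.63 in animal 4, against 7.96 to 9.85 in O2-PBS animals 5 to 7 and 230 in animal 8. With the Y-linked level as a covariate the same 3 members were called, where 886 of 16688 genes were (edgeR without animal 10). Their log2 fold changes were 0.982 for Pfkp, 0.782 for Slc16a3 and -1.566 for Pgam2. Pfkfb3, Pfkl, Pdk1 and Ldhb stayed under an edgeR adjusted p of 0.1 (0.0170, 0.0251, 0.0414 and 0.0616), joined by Gpi1 (0.0874). The share of all genes under that adjusted p in this fit is not given here.

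Summed markers of other cells differed between the same groups, though RA-PBS and O2-PBS overlapped for pigment epithelium and microglia. The summed CPM of 12 endothelial markers were 251 to 351 in RA-PBS, 483 to 553 in O2-PBS and 358 to 399 in O2-IC100 without animal 10. For 7 pericyte markers they were 158 to 189, 336 to 473 and 295 to 357, and for 9 Müller glia markers 3715 to 5004, 2888 to 3227 and 3492 to 3814. For 10 pigment epithelium markers they were 116 to 338, 55.5 to 138 and 159 to 164, and for 10 microglia markers 51.7 to 105, 95.8 to 124 and 120 to 146. Some single markers did not follow their sum from RA-PBS to O2-PBS. Examples are Slc1a3 of Müller glia (165.5 to 204 and 185 to 237 CPM), Tek of endothelium (9.64 to 10.7 and 8.74 to 13.6 CPM) and Tmem119 of microglia (1.69 to 3.63 and 1.47 to 2.00 CPM). All genes of these 5 lists were detected in every retina, and their part in the values of the 35 genes was not tested.

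**Figure D3:**
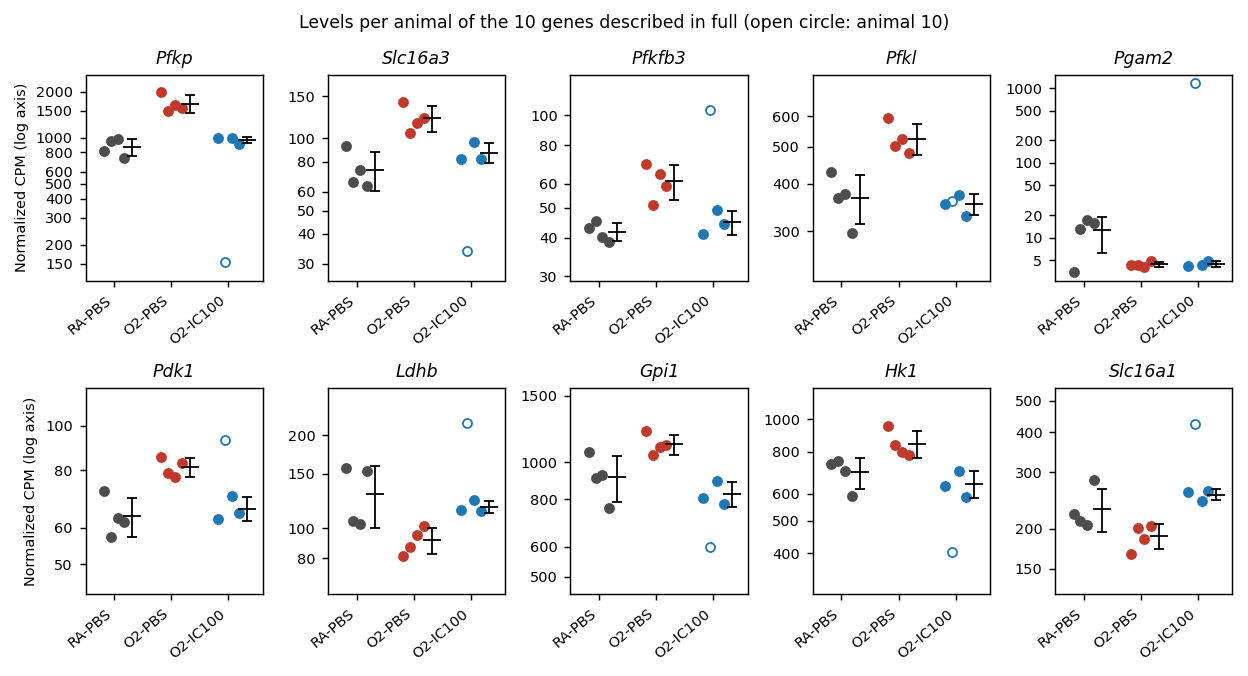
Normalized CPM on a log axis for the 10 genes described in full, 1 point an animal, with the mean and SD of each group (n = 4, n = 3 for O2-IC100, which leaves out animal 10). Animal 10, the open circle, is at 154.5 CPM for Pfkp and 1172 CPM for Pgam2, while the Pfkp values of the other 3 O2-IC100 animals lie between 912 and 994 CPM, below all 4 O2-PBS animals.

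The second comparison, O2-IC100 against O2-PBS, asks what differed with the antibody in retinas that had been through oxygen. Without animal 10, Pfkp was the one of the 35 that was called, and it was lower: 992, 994 and 912 CPM against 1492 to 1988 CPM, with no overlap. Its log2 fold change was -0.77 (SE 0.12, edgeR adjusted p = 0.0267), and Pfkl at -0.56 (SE 0.12, adjusted p = 0.0716) passed the adjusted p at 0.680-fold, short of the fold minimum. Thus 1 of 35 was called lower and 0 higher, against 0.731% and 0.216% of all genes, and on the adjusted p alone 2 and 0, against 0.851% and 0.461%. With 12 animals edgeR called 0 members and 0% of all genes, while 13 members (37.1%, all genes 16.9%) had an unadjusted p under 0.05, and DESeq2 called 0 members and 112 genes.

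For Pfkp, leaving out animal 9, 11 or 12 gave log2 fold changes of -0.789, -0.792 and -0.731 with edgeR adjusted p-values of 0.1927, 0.1248 and 0.2012, and none of all genes tested was called in those fits. The Y-linked genes summed to 283 to 324 CPM in the 3 treated retinas, against the 1 high value of 230 in O2-PBS (animal 8). O2-PBS animal 8 had 1560 CPM of Pfkp, above all 3 treated retinas. With the Y-linked level as a covariate Pfkp still passed (-0.847, adjusted p = 0.0921) and Pfkl did not (-0.655, adjusted p = 0.1159). Pfkl also missed the adjusted p when any 1 of the 4 O2-PBS or 3 treated retinas was left out (0.1191 to 0.3049). Its log2 fold changes in those fits were -0.601 to -0.505. Leaving out an RA-PBS retina instead gave edgeR adjusted p-values of 0.0143 to 0.0534.

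The other 33 members did not pass, with adjusted p-values from 0.110 to 0.984. In the upper pathway all 9 enzymes from hexokinase to triose phosphate isomerase had a log2 fold change below 0, with a median of -0.38 against 0.00 over all genes. Values for those described above were -0.42 for Gpi1 (adjusted p = 0.120), -0.38 for Hk1 (0.1412) and -0.42 for Pfkfb3 (0.110). Slc16a3 was at -0.46 (adjusted p = 0.1458) and Pdk1 at -0.29 (adjusted p = 0.159). In the opposite direction Slc16a1 was at 0.45 (adjusted p = 0.110), Ldhb at 0.375 (adjusted p = 0.214), Mpc1 and Mpc2 at 0.36 and 0.40, and Pdha1 and Pdhb at 0.385 and 0.37, none past the threshold.

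More members passed the adjusted p once the crystallin level was a covariate, an alternative chosen after seeing the data, though the log2 fold changes moved little. Crystallins took 0.00302% to 0.0158% of counts in O2-PBS and 0.00407% to 0.00855% in these treated retinas. The covariate thus had little to adjust between the 2 groups, and the RA-PBS retinas enter the same estimate of the spread. Their part in the lower p-values was not tested. In the fit with that covariate 11 of 35 were under an adjusted p of 0.1, where 4.73% of all genes were, and Pfkp stayed the 1 member called, where 2.09% of all genes were called. Besides Pfkp and Pfkl, these were Gpi1 (-0.41, adjusted p = 0.0635), Slc16a3 (-0.45, 0.0661), Aldoa (-0.33, 0.0760), Pfkfb3 (-0.42, 0.0772), Pdk1 (-0.28, 0.0862), Hk1 (-0.38, 0.0935) and Pdk2 (-0.34, 0.0990), all lower, and Slc16a1 (0.45, 0.0808) and Pdha1 (0.39, 0.0931), both higher.

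With 3 animals against 4, groups that do not overlap were common over all genes. Of the 35, 15 did not overlap and were lower in O2-IC100 (42.9%, all genes 16.02%), among them Pfkp, Pfkl, Hk1, Hk2, Gpi1, Aldoa, Pkm, Slc2a1, Slc16a3 and Pdk1. Another 7 did not overlap and were higher (all genes 19.4%), namely Bpgm, Ldhb, Slc16a1, Mpc1, Mpc2, Pdha1 and Pdhb. Of the 20 textbook HIF-1 targets 1 (Ldha) had a log2 fold change above 0 and the median was -0.255, and of the other 15 members 8 were above 0 with a median of 0.03. The O2-PBS animals serve in both comparisons, so a high or low value among them moves the 2 results in opposite directions.

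The third comparison set O2-IC100 against RA-PBS. Without animal 10 Pgam2 was the one member called (1 lower, 0 higher, against 0.617% and 0.947% of all genes), at -1.475 (SE 0.38, edgeR adjusted p = 0.0864), and with the crystallin covariate its log2 fold change was 0.02 (adjusted p = 0.961). That fit instead called Pfkm lower (-0.74, adjusted p = 0.00753), 1 of 35 members against 10.5% of all genes. On the adjusted p alone it had 6 members against 17.6% of all genes, with Aldoc (-0.51), Aldoa (-0.43), Slc2a3 (-0.33) and Eno2 (-0.30) lower and Pfkfb2 (0.36) higher beside Pfkm. Here too the covariate leans on RA-PBS animal 1, the one RA-PBS retina with little crystallin RNA. Without that covariate the median of the 35 was 0.01. Pfkp then stood at 0.16 (SE 0.12, edgeR adjusted p = 0.5445), Pfkl at -0.04, Pfkfb3 at 0.12, Slc16a3 at 0.25 and Pdk1 at 0.07. These p-values do not show that the groups are alike. With 12 animals edgeR called 0 members and 0% of all genes, with 3 members (8.57%, all genes 13.2%) at an unadjusted p under 0.05, and DESeq2 called 0 members and 280 genes.

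Several steps are served by near relatives with different kinetics, so the share of 1 paralog in its family was compared over animals by an exact two-sided permutation test of the group means (18 tests, Benjamini-Hochberg). The Ldha share of lactate dehydrogenase counts was 89.8% ± 0.571 in RA-PBS and 93.3% ± 0.458 in O2-PBS (SD, n = 4 each), and all 4 O2-PBS animals were above RA-PBS (exact p = 0.0286, adjusted p = 0.0735). The Pfkp share of phosphofructokinase counts was 62.5% ± 4.20 in RA-PBS and 71.8% ± 0.995 in O2-PBS, with the same exact and adjusted p, and the Aldoa share of aldolase counts (84.05% ± 0.490 and 87.4% ± 0.662) and the Eno1 share of enolase counts (83.2% ± 2.14 and 86.5% ± 0.698) also separated the groups in that way. An exact p of 0.0286 is the smallest that 4 against 4 can give, and none of the 18 was under 0.05 after adjustment. The shares were judged at 0.05, and the 0.0735 here is under the 0.1 used for single genes. The 18 tests include comparisons with animal 10, which enter the adjustment.

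In O2-IC100 animals 9, 11 and 12 the Ldha share was 91.6%, 91.8% and 91.7%, between those of the other groups, and the Pfkp share was 67.5%, 67.0% and 67.0%, below every O2-PBS animal (70.9% to 73.2%). The differences from O2-PBS were -1.60 percentage points for Ldha, -4.57 for Pfkp and -2.40 for Aldoa, each with an exact permutation p of 0.0571, the smallest that 3 against 4 can give, so this design could not pass. With animal 10 the differences were -6.67, -14.84 and -9.45 points (exact p = 0.0286, adjusted p = 0.0735 each). The Eno1 share differed by -0.09 points (exact p = 0.914). The Hk2 share of hexokinase counts (24.0% ± 4.33 in RA-PBS, 19.98% ± 1.22 in O2-PBS) and the Slc2a1 share (75.2% ± 2.73 and 76.6% ± 1.11) overlapped between these groups.

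**Figure D4:**
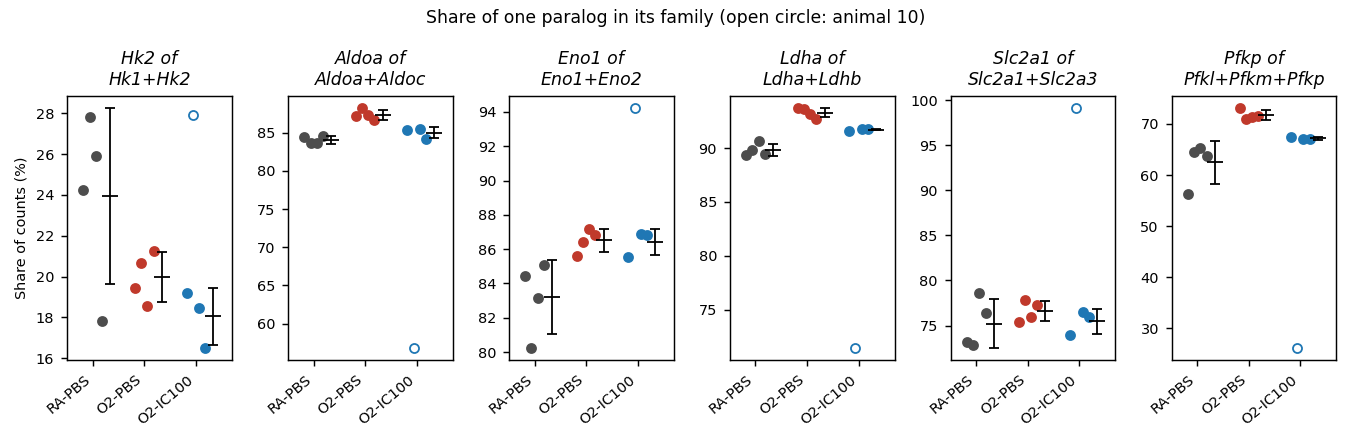
Share of 1 paralog in the counts of its family, in percent, 1 point an animal with the mean and SD of each group (n = 4, n = 3 for O2-IC100 without animal 10, the open circle). For Ldha and Pfkp the 4 O2-PBS animals lie above the RA-PBS animals, and the 3 filled O2-IC100 points lie below O2-PBS.

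Beyond the 35, a list of 42 other genes of the pathway was read, 36 of which were tested without animal 10. In O2-PBS against RA-PBS 1 of 36 was called higher and 3 of 36 lower, where 4.09% and 2.18% of all genes were. Pgm2, which interconverts sugar phosphates, was at 4.84 to 7.11 CPM in RA-PBS and 7.97 to 9.37 CPM in O2-PBS (log2 fold change 0.60, edgeR adjusted p = 0.0172). Emb, an ancillary protein of monocarboxylate transporters, read 44.5, 34.9, 38.5 and 38.9 CPM in RA-PBS and 21.6, 19.4, 21.3 and 20.3 CPM in O2-PBS, a log2 fold change of -0.92 (adjusted p = 0.000103). In O2-IC100 animals 9, 11 and 12 Emb was at 30.0, 28.3 and 25.9 CPM, between the groups without overlap, with 0.455 against O2-PBS (adjusted p = 0.0772) and -0.47 against RA-PBS (adjusted p = 0.0550), both under the fold minimum. The transporter gene Slc2a6 was lower in all 4 O2-PBS animals (-0.60, adjusted p = 0.0261). Slc16a8, the lactate transporter of the pigment epithelium, was at -1.145 (adjusted p = 0.0949), with 15.3 to 19.1 CPM in RA-PBS animals 2 to 4, 4.71 CPM in RA-PBS animal 1, 3.62 to 8.81 CPM in O2-PBS and 511 CPM in animal 10, where the pigment epithelium markers summed to 8401 CPM. In O2-IC100 against O2-PBS none of these 36 was called by edgeR, with 6 (16.7%, all genes 19.2%) at an unadjusted p under 0.05.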

How the data were processed

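RNA of P18 retinas from 12 mice, 4 a group by the labels, was sequenced (paired-end, polyA selected). The authors pseudoaligned the reads to a GRCm39 transcriptome with Kallisto and brought the transcript estimates to genes by tximport. The deposited values are expected counts, 42.2% of them not whole and none scaled to library size. Gene symbols came from a reference table (35374 of 36131 IDs matched). Promoter sequences are RefSeq, GRCm38.p6, and no coordinates were converted.

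Counts were rounded and fitted in R 4.3.3 with edgeR 4.0.16: TMM, filterByExpr (16489 genes with 12 animals, 16688 without animal 10), robust quasi-likelihood, 3 groups in 1 model with no covariate, Benjamini-Hochberg over all genes tested. Calls needed a fold change of at least 1.5 either way, p under 0.05 and adjusted p under 0.1, the thresholds of the study. Normalized CPM are from the 12-animal TMM. Alternatives were DESeq2 1.42.0, limma 3.58.1 (voom), RLE and upper quartile scaling, other filters, covariates, fits of 2 groups and leaving out animals. The fits were also run on simulated counts with known changes. These held no lens-rich library and no uneven crystallin or Y-linked levels, so they do not test the fits under those conditions. The 35 genes, the other lists and the tests were chosen with earlier results of these data known. The 10 genes described in full are those called in any comparison, filled up by the smallest p between O2-PBS and RA-PBS without animal 10. Each animal is taken as 1 replicate. At this depth the smallest share that could be seen was 3 counts of a library, which covers counting error only.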

Additional observations from a re-analysis of the deposited data

Results flagged for a closer look

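In groups of 4, an animal was singled out when its gap to the next passed Dixon's 95% critical value, which chance gives in about 1 of 20 groups. Of 48 groups of values examined (10 genes and 6 paralog shares in 3 groups) 10 were singled out, and all 10 were animal 10 of O2-IC100, the retina with 59.0% crystallin counts. It was lowest for Pfkp (154.5 CPM against 912 to 994 in the other 3) and highest for Pgam2 (1172 against 4.15 to 4.90 CPM), Pfkfb3 (104.4 against 41.1 to 49.25 CPM), Ldhb (219 against 114 to 123 CPM) and Slc16a1 (422.5 against 244.5 to 262 CPM). Among the shares, it was lowest for Aldoa (56.8% against 84.2% to 85.5%), Ldha (71.4% against 91.6% to 91.8%) and Pfkp (26.1% against 67.0% to 67.5%), and highest for Eno1 (94.2% against 85.5% to 86.9%) and Slc2a1 (99.2% against 73.9% to 76.5%).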

How the results depend on the processing

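Animal 10 decided most calls. With 12 animals none of the 35 was called in any comparison. Leaving out 1 animal gave 0 to 3 calls in O2-PBS against RA-PBS, 0 to 1 in O2-IC100 against O2-PBS and 0 to 1 in O2-IC100 against RA-PBS, the highest each time without animal 10. Over all genes the calls without animal 10 were 1046, 158 and 261. A Y-linked covariate with 12 animals gave 1 call (Slc16a3) in O2-PBS against RA-PBS, where 255 of all genes were called. In O2-IC100 against O2-PBS it gave 11 (4 higher, 7 lower), where 3686 of 16489 genes were called. A fit of only O2-PBS and RA-PBS gave 3, with 867 of all genes. Leaving out animals 1 and 10 gave 4, 1 and 1, with 968, 282 and 315 of all genes. Animal 1 was planned to be left out as a library with lens RNA, but the data put that RNA in animals 2, 3 and 4.

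Without animal 10, O2-PBS against RA-PBS gave 3 calls, 7 on the adjusted p alone, 2 with limma voom (Pgam2 lost at -1.293, adjusted p = 0.1182) and 3 to 5 when a further animal was left out (5 without RA-PBS animal 2). Over all genes these fits called 1046, 2074 on the adjusted p alone, 1005 with limma voom and 1109 without RA-PBS animal 2. O2-IC100 against O2-PBS gave 1 call, 2 on the adjusted p alone, 2 with upper quartile scaling and 0 to 1 with a further animal left out (0 without animal 9, 11 or 12). The first 3 of these had 158, 219 and 182 of all genes. O2-IC100 against RA-PBS gave 1 call, 2 with DESeq2 (Hk2 and Pgam2), 0 with limma voom, no filter or only those 2 groups, 1 with the Y-linked covariate (Hk2, with Pgam2 lost at -1.401, adjusted p = 0.1046), and 0 to 2 with a further animal left out (1 without RA-PBS animal 1, 2 without RA-PBS animal 4, otherwise 0). For this last comparison all genes called were 261 in the main fit, 562 with DESeq2 and 925 without RA-PBS animal 4. Fits that leave 2 treated animals share the spread of the other groups.

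Log2 fold changes of the 10 genes changed sign mainly near 0. With 12 animals, O2-IC100 against RA-PBS ranged over left-out animals from -0.158 to 0.249 for Slc16a3 (0.131 without animal 1, 0.249 without animal 10), -0.344 to 0.164 for Pfkp, -0.138 to 0.033 for Pfkl, -1.475 to 4.973 for Pgam2 and -0.129 to 0.242 for Ldhb, with the positive value of Pfkp and the negative ones of Pgam2 and Ldhb without animal 10. Leaving out animals 1 and 10 gave 0.386, 0.137, 0.045, -1.780 and -0.021 for these 5 in turn, and Slc16a3 was at 0.001 with DESeq2 and RLE and 0.012 with upper quartile scaling. For Pfkfb3 in O2-IC100 against O2-PBS the range was -0.424 to 0.111, with 0.000 under RLE and 0.046 under the Y-linked covariate. Without animal 10, Pgam2 in O2-IC100 against O2-PBS ranged from -0.049 to 0.087, with -0.000 under upper quartile scaling and -0.032 under the crystallin covariate, and Pfkl in O2-IC100 against RA-PBS from -0.130 to 0.045. The crystallin covariate also put Pgam2 at 0.056 in O2-PBS against RA-PBS and 0.024 in O2-IC100 against RA-PBS, where Slc16a3 became -0.043 and Pdk1 -0.081. The causes were not tested.

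With 12 animals the share differences of O2-IC100 against O2-PBS ranged over left-out animals from -1.918 to 1.894 percentage points for Hk2, -0.095 to 2.814 for Eno1 and -1.156 to 7.264 for Slc2a1, the lowest each time without animal 10. Those of Ldha, Pfkp and Aldoa ranged from -8.377 to -1.598, -18.378 to -4.572 and -11.958 to -2.398, in each case smallest without animal 10. In the comparison without animal 10 that of Eno1 ranged from -0.404 to 0.348. Scaling by transcript length changed no direction of a share and no side of the threshold, but the lengths are medians over coding transcripts of an annotation on another build, some of them short (581 bases for Hk1, 509.5 for Slc2a3), so the scaled shares are rough. No paired analysis was possible because the animals carry the numbers 1 to 12 and no number is shared between groups. The 3 treated animals left limit both comparisons of O2-IC100.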
